A study of Cavia porcellus with 34 samples.

Results

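The 8 feeding neuropeptide genes examined here were AGRP, NPY, POMC, CARTPT, HCRT, PMCH, GAL and NUCB2, chosen by gene symbol as the best known hypothalamic peptide precursors of hunger and satiety. They were followed in tissue of the hypothalamic paraventricular nucleus (PVN) of juvenile female guinea pigs on postnatal day 40, in 3 generations of the paternal line. Of the 8 genes, 6 were measured in F1 among 12114 genes in all, 7 in F2 among 12207 and 6 in F3 among 12068, and each of these also passed the filter on low values. AGRP was not analysed here in any generation, NPY was not analysed here in F1, and PMCH was not analysed here in F3. The Veh groups descended from pregnant F0 females given saline, and the sGC groups from F0 females given courses of the synthetic glucocorticoid betamethasone. F1 animals were themselves exposed in utero. The F2 and F3 animals descended through the paternal line from F1 males kept for breeding, not from the F1 females measured here. Each F1 and F2 group held 5 animals, and each F3 group held 6, so that 32 animals were compared in all. A punch of this kind takes in tissue around the PVN as well as the nucleus itself.

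In the hypothalamus, hunger and satiety are carried by a small set of peptide neurons. Neurons of the arcuate nucleus that make neuropeptide Y (NPY) and agouti-related peptide (AGRP) promote feeding, and neighbouring neurons that cut melanocortins out of proopiomelanocortin (POMC) restrain it. Both send their axons into the PVN, where second-order neurons read their balance. Melanin-concentrating hormone (MCH, from PMCH) and orexin (from HCRT) come from separate neurons of the lateral hypothalamus and promote feeding. Orexin also promotes wakefulness. The peptide CART (from CARTPT) is made in the arcuate nucleus, the lateral hypothalamus and the PVN itself, galanin (GAL) is made in several hypothalamic nuclei including the PVN, and NUCB2 gives rise to the satiety peptide nesfatin-1. A precursor mRNA is mostly held in the cell body, so the level in a punch follows the cell bodies caught in it and not the axons that end there.

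All values are the authors' normalized counts, rounded to whole numbers, and their sum per animal ran from 15573233 to 21935501 in F1. The sums ran from 15645962 to 19435104 among F2 animals and from 18692048 to 18977539 among F3 animals. The 3 generations were normalized separately, so levels were compared within a generation. The PVN label was checked against 10 marker genes of the nucleus, of which 9 were measured in each generation and were present. Their summed level ran from 100584 to 222569 in F1 Veh animals and from 32543 to 194497 in F1 sGC animals, from 70272 to 107382 and from 91131 to 182716 in F2, and from 24803 to 63331 and from 30950 to 46751 in F3. OXT and AVP, which encode oxytocin and vasopressin, made up most of it in every F1 and F2 animal and in 10 of the 12 F3 animals. Lateral hypothalamic and arcuate genes were present in the same punches, and all members are described with that mixture in view. In F3, all 6 Veh libraries and 4 of the 6 sGC libraries were of the first sequencing batch and the other 2 sGC libraries, SGM21 and SGM22, of the second. The second batch also held re-sequenced libraries of 2 of the Veh animals, which were not analysed here.

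No member differed between sGC and Veh animals after adjustment over all genes in any generation. By limma, with p-values adjusted by the Benjamini-Hochberg method over all genes tested and called below 0.05, 0 of 6 members were called in F1, where 0.657% of all genes tested were called, 0 of 7 in F2, where 0% were called, and 0 of 6 in F3, where 0.0506% were called. Without adjustment, 0 members in F1, 0 in F2 and 1 in F3 (GAL) had a p under 0.05, a threshold that 13.6% of all genes tested passed in F1, 11.7% in F2 and 13.1% in F3. No member had Veh and sGC groups without overlap, against 2.04% of all genes in F1, 2.4% in F2 and 1.21% in F3. The median log2 fold change of the members (sGC minus Veh) was 0.088 in F1, 0.069 in F2 and -0.072 in F3, beside 0.066, -0.076 and -0.0016 over all genes tested. The signs were mixed, with 4 of 6 members positive in F1, 5 of 7 in F2 and 1 of 6 in F3.

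**Figure D1:**
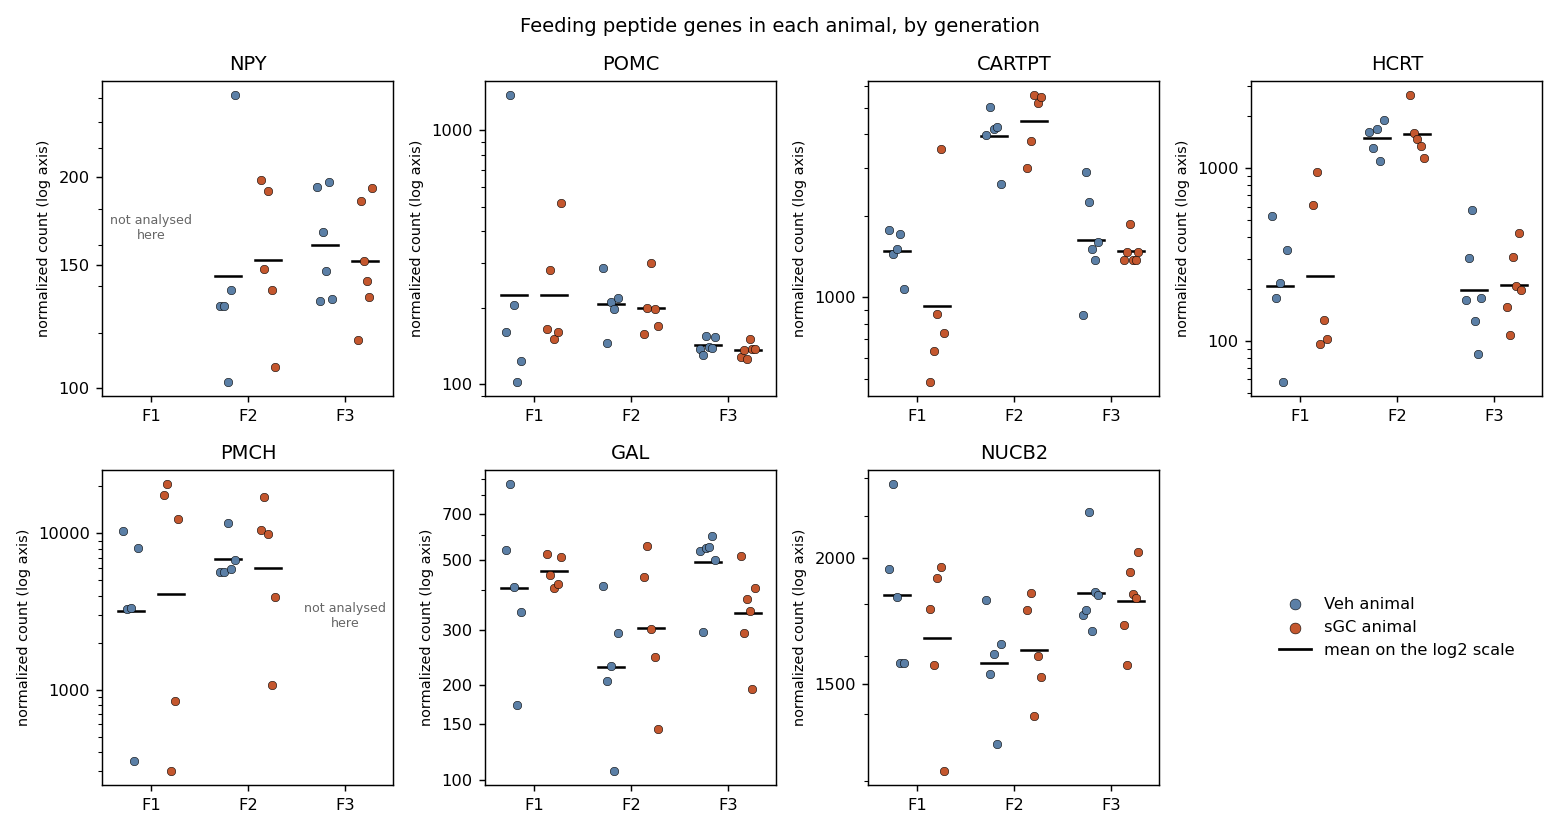
Normalized count (log axis) of each measured feeding peptide gene in every animal, by generation, with Veh in blue and sGC in orange, and bars at the group mean on the log2 scale. The groups overlapped in every panel, PMCH in F1 ran from 303 to 20684, and POMC in F3 lay within 126 to 155.

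NPY, an arcuate peptide that strongly drives feeding, did not differ between groups beyond the spread between animals. In F2, Veh animals had 131, 131, 102, 138 and 262 normalized counts and sGC animals 198, 148, 191, 138 and 107. The highest animal, SGM29 at 262, and the lowest, SGM27 at 102, were both Veh, and the sGC animals lay between them. This gave a log2 fold change of 0.08 ± 0.23 (SE; 95% interval -0.43 to 0.58; limma adjusted p = 0.908). In F3, Veh animals ran from 133 to 197 with a median of 157 and sGC animals from 117 to 193 with a median of 147. The groups overlapped over nearly their whole range, with a log2 fold change of -0.08 ± 0.13 (SE; 95% interval -0.36 to 0.21; limma adjusted p = 0.859). In a tissue punch of this kind, a lower level from fewer cells of a type and one from less RNA per cell cannot be told apart.

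POMC, the melanocortin precursor of the arcuate satiety neurons, did not differ between groups and ranged from one of the most uneven genes in F1 to an even one in F3. In F1, Veh animals had 160, 1372, 204, 102 and 123 normalized counts and sGC animals 165, 282, 150, 160 and 518. One Veh animal, SGM7, stood far above all others, and 1 sGC animal, SGM20, was the next highest. SGM7 also had the highest F1 level of 3 arcuate genes that are not members, GHRH (1072, others 253 to 450), TAC3 (2454, others 425 to 1069) and TBX3 (798, others 40 to 361). The summed level of the 8 arcuate markers that are not members was 9917 in this animal and 2728 to 6652 in the other 9. SGM7 was also highest in F1 for the pituitary marker TBX19 (127, others 13 to 51), PCSK1 (6518) and NPY5R (566). For TSHB, another pituitary marker, it was not (145, with SGM3 at 163). Its sum of normalized counts was the largest in F1 (21935501). The part of tissue content in the POMC values was not tested. The log2 fold change was 0.01 ± 0.47 (SE; 95% interval -0.96 to 0.97; limma adjusted p = 0.998), and it changed to 0.66 when SGM7 was left out and to -0.29 when SGM20 was left out, neither of which was called. The 95% interval from the spread of POMC alone was -1.73 to 1.75, so a large change either way could not be told from none.

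In F2, POMC stood at 287, 145, 210, 198 and 218 normalized counts in Veh animals and at 157, 200, 301, 198 and 169 in sGC animals. The groups covered the same range, and the log2 fold change was -0.05 ± 0.19 (SE; 95% interval -0.47 to 0.37; limma adjusted p = 0.925). In F3, Veh animals ran from 130 to 155 with a median of 139.5 and sGC animals from 126 to 151 with a median of 136.5. The highest of the 12 F3 animals was only 1.23 times the lowest. The F3 log2 fold change of -0.07 ± 0.06 (SE; 95% interval -0.20 to 0.06; limma adjusted p = 0.691) therefore bounded any difference of POMC more closely than that of any other member in any generation.

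CARTPT, the CART precursor, showed the clearest split between most sGC and all Veh animals, and it was in F1. Veh animals had 1767, 1446, 1514, 1707 and 1076 normalized counts. sGC animals had 488, 635, 872, 3534 and 739. Of the 5 sGC animals, 4 lay below every Veh animal, while SGM16 lay above every Veh animal at 2 times the highest of them. The means were 1502 ± 272 (SD, n = 5) in Veh and 1254 ± 1283 (SD, n = 5) in sGC animals. The log2 fold change was -0.67 ± 0.32 (SE; 95% interval -1.33 to 0.00; limma adjusted p = 0.372), and the exact permutation test gave p = 0.246 (two-sided, 252 regroupings).

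Each F1 animal was left out in turn, and SGM16 alone decided whether CARTPT was called. Without it the sGC mean was 684 ± 162 (SD, n = 4) and the log2 fold change -1.15 (limma adjusted p = 0.00135), with no overlap between the groups and an exact permutation p of 0.00794, the smallest that 4 against 5 animals allow. The other 4 sGC animals already lay below every Veh animal, so this exact p was fixed once SGM16 was out. SGM16 was singled out by these same values, so neither p-value is support for a difference. Leaving out any of the other 9 animals gave log2 fold changes from -0.78 to -0.43, none of them called. SGM16 did not stand apart in total count or in the other members. Its GAL (419), POMC (160) and NUCB2 (1957) lay within or just above the range of the other sGC animals, and its PMCH (841) and HCRT (133) were among the 4 lowest of the 10 F1 animals.

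The level of CARTPT ran beside that of AVP, a PVN marker, in most F1 animals. AVP was at 105166, 110112, 88264, 95906 and 48718 normalized counts in the Veh animals in the order used above and at 10482, 14891, 77938, 102436 and 23305 in the sGC animals. The 3 sGC animals with the lowest AVP, SGM4, SGM8 and SGM20, also had the 3 lowest CARTPT levels, and the Veh animal with the lowest AVP, SGM19, had the lowest CARTPT of its group. SGM12 and SGM16 departed from this, both with an AVP level among those of Veh animals but with a CARTPT level below every Veh animal in SGM12 and above every Veh animal in SGM16. The summed level of the PVN markers was 32543 to 55183 in SGM4, SGM8 and SGM20 and 100584 to 222569 in the other 7 F1 animals. The part of PVN tissue content in the CARTPT values was not tested.

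**Figure D2:**
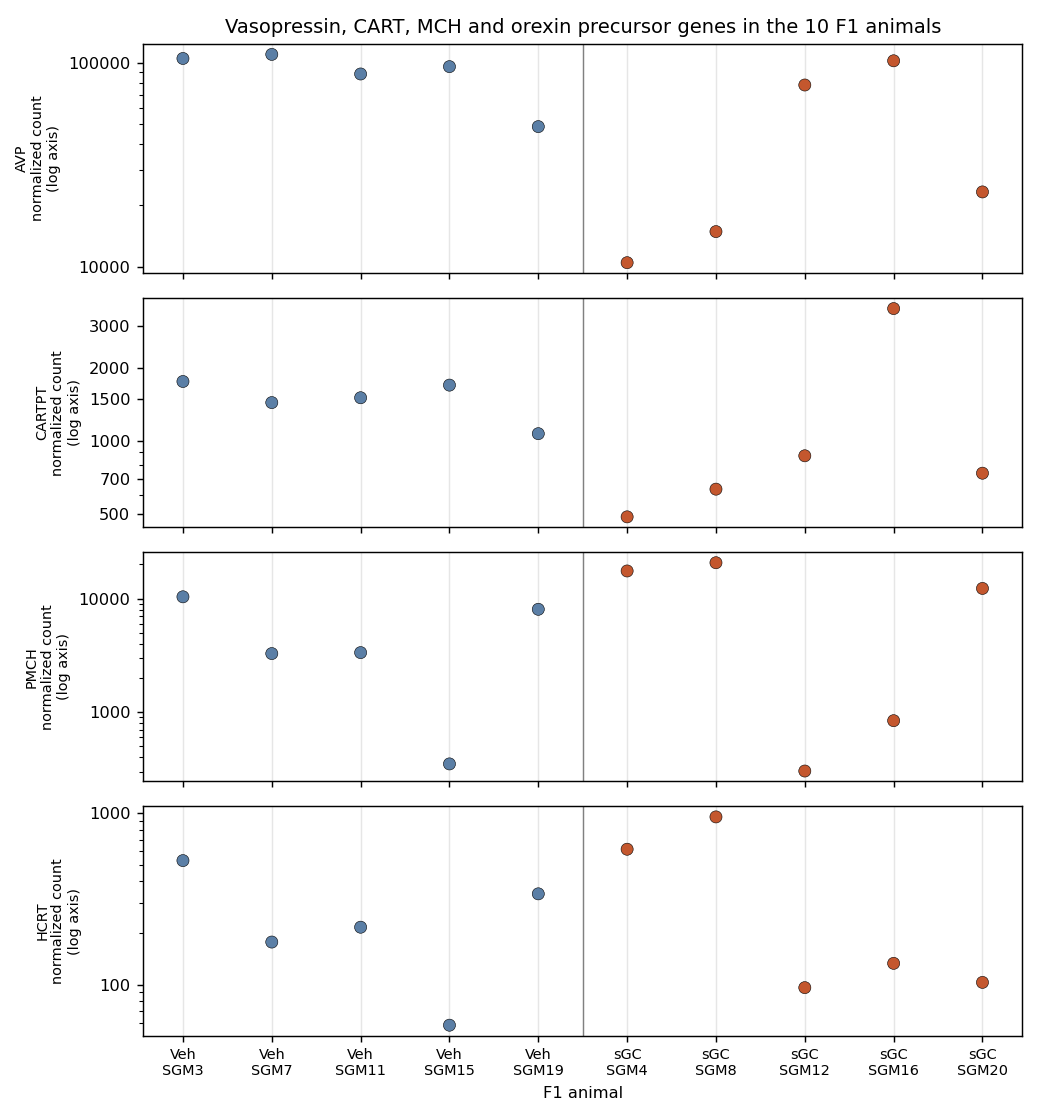
Normalized counts (log axes) of AVP, CARTPT, PMCH and HCRT in the 10 F1 animals, with Veh in blue on the left and sGC in orange on the right. SGM4, SGM8 and SGM20 combined low AVP (10482 to 23305) and CARTPT (488 to 739) with high PMCH (12285 to 20684), and SGM16 had the highest CARTPT (3534).

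The F1 pattern of CARTPT was not seen in F2 or F3. In F2, Veh animals had 3968, 5050, 4179, 4265 and 2618 normalized counts and sGC animals 3000, 3761, 5556, 5187 and 5476. Of the 5 sGC animals, 3 were above every Veh animal and the lowest animal was Veh, and the log2 fold change was 0.19 ± 0.19 (SE; 95% interval -0.23 to 0.60; limma adjusted p = 0.708). In F3, Veh animals ran from 859 to 2894 with a median of 1556 and sGC animals from 1369 to 1860 with a median of 1425. The sGC animals all lay inside the Veh range, with a log2 fold change of -0.14 ± 0.22 (SE; 95% interval -0.60 to 0.32; limma adjusted p = 0.839). The F1 and F2 fold changes of CARTPT differed by -0.85 on the log2 scale, which was within the spread between animals (two-sided permutation test, 100000 permutations, p = 0.149, adjusted p = 0.842).

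PMCH, the MCH precursor of the lateral hypothalamus, varied more between animals of one group than nearly any other gene. In F1, Veh animals had 10365, 3279, 3344, 350 and 8047 normalized counts and sGC animals 17503, 20684, 303, 841 and 12285. The 3 highest animals were all sGC, but the lowest was also sGC, and the highest value was 68.3 times the lowest. The log2 fold change of 0.37 ± 0.91 (SE; limma adjusted p = 0.906) had a 95% interval of -1.52 to 2.25. From its own spread alone the interval was -3.15 to 3.88, so that neither a several-fold rise nor a several-fold fall could be told from no change with these animals.

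In F2, PMCH was at 5661, 5657, 11697, 5955 and 6712 normalized counts in Veh animals and at 10493, 17193, 9967, 1065 and 3936 in sGC animals. The Veh animals were close together but for SGM27, while the sGC animals spanned a 16.1-fold range around them. On the log2 scale the fold change was -0.20 ± 0.57 (SE; 95% interval -1.44 to 1.04; limma adjusted p = 0.903). Its sign depended on how the mean was taken, since the arithmetic mean was higher in sGC animals (8531 ± 6281, SD, n = 5) than in Veh animals (7136 ± 2586, SD, n = 5). Without SGM24, the sGC animal at 1065, the log2 fold change was 0.42.

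The level of BSX, a hypothalamic homeobox gene that is not a member, ran beside that of PMCH in F1. There it was at 82, 144, 37, 5 and 36 normalized counts in Veh animals and 175, 114, 2, 9 and 139 in sGC animals, and the 3 animals with the lowest BSX (SGM15, SGM12 and SGM16) were the 3 with the lowest PMCH. In F2, BSX was at 18, 8, 14, 7 and 12 in Veh and 38, 113, 66, 11 and 18 in sGC animals, and SGM26 was the highest animal for both genes. SGM27, the second highest F2 animal for PMCH, had a BSX level of only 14, and the lowest animals for PMCH were not the lowest for BSX. BSX was higher in F2 sGC animals at an unadjusted p only (log2 fold change 1.6 ± 0.52, SE; limma adjusted p = 0.266).

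HCRT, the orexin precursor, was also uneven in F1 and F3 and did not differ between groups. In F1, Veh animals had 528, 177, 216, 58 and 338 normalized counts and sGC animals 615, 949, 96, 133 and 103. The 2 highest animals, SGM8 and SGM4, were sGC and were also the 2 highest for PMCH, while the remaining 3 sGC animals lay below 4 of the 5 Veh animals. This gave a log2 fold change of 0.19 ± 0.54 (SE; 95% interval -0.92 to 1.30; limma adjusted p = 0.915). The 95% interval from the spread of HCRT alone was -1.83 to 2.21, so a large change either way could not be told from none. SGM20 set the peptides apart, with PMCH at 12285 but HCRT at 103.

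In F2, HCRT stood at 1630, 1303, 1690, 1108 and 1910 normalized counts in Veh and at 2645, 1607, 1470, 1343 and 1148 in sGC animals. Apart from SGM21 at 2645, the sGC animals were within the Veh range, and the log2 fold change was 0.07 ± 0.20 (SE; 95% interval -0.36 to 0.50; limma adjusted p = 0.903). In F3, Veh animals ran from 84 to 574 with a median of 175.5 and sGC animals from 108 to 421 with a median of 202. The groups overlapped throughout, with a log2 fold change of 0.10 ± 0.41 (SE; 95% interval -0.77 to 0.97; limma adjusted p = 0.949), which became -0.12 in the first sequencing batch alone. Every F2 animal was above every F1 and F3 animal for HCRT, but these tables were normalized separately and the difference was not tested.

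**Figure D3:**
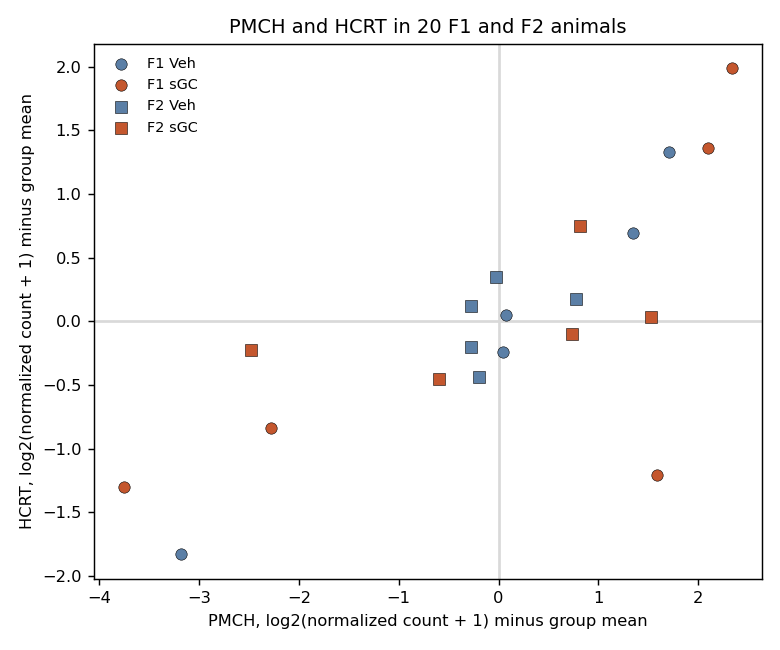
HCRT against PMCH in the 20 F1 and F2 animals, each as log2(normalized count + 1) minus its group mean, with F1 as circles, F2 as squares, Veh in blue and sGC in orange. The 2 genes rose and fell together in most animals (Pearson r = 0.749), and F1 sGC animal SGM20 lay at the lower right, with high PMCH and low HCRT.

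GAL, a peptide of several hypothalamic nuclei that favours feeding, was the one member below an unadjusted p of 0.05, and this was in F3. F3 Veh animals ran from 294 to 596 normalized counts with a median of 538.5, and sGC animals from 194 to 513 with a median of 359. No sGC animal reached the Veh median, but the Veh animals SGM14 at 294 and SGM1 at 500 lay within the sGC range. The means were 503 ± 107 (SD, n = 6) and 354 ± 108 (SD, n = 6), a ratio of 0.704. The log2 fold change was -0.53 ± 0.21 (SE; 95% interval -0.98 to -0.09; limma adjusted p = 0.295), and the exact permutation test gave p = 0.0498 (two-sided, 924 regroupings) and an adjusted p of 0.896 over the 19 tests of members. The 95% interval from the spread of GAL alone was -1.08 to 0.02, which includes 0.

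The lower GAL level in F3 sGC animals rested in part on SGM21, an animal of the second sequencing batch. From that batch only the 2 sGC animals entered the comparison. Those animals were at 194 and 407 normalized counts with a mean of 300.5, and the 4 sGC animals of the first batch had a mean of 381 ± 94.5 (SD, n = 4). Within the first batch, the log2 difference from the 6 Veh animals was -0.40 (exact permutation test, two-sided, p = 0.148). Leaving out SGM21, the second-batch animal at 194, gave -0.37, whereas leaving out SGM22, the one at 407, gave -0.58. Leaving out SGM14, the low Veh animal, gave -0.68. NKX2-1, a transcription factor of the ventral hypothalamus, moved beside GAL in F3, at 361 ± 110 (SD, n = 6) in Veh and 205 ± 101 (SD, n = 6) in sGC animals (log2 fold change -0.93 ± 0.34, SE; limma adjusted p = 0.265), and it was lowest, at 61, in the animal with the lowest GAL. Its part in the GAL values was not tested.

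GAL had other signs in the earlier generations. In F1, Veh animals had 536, 869, 409, 173 and 341 normalized counts and sGC animals 523, 448, 406, 419 and 509. The sGC animals were tightly grouped inside a Veh range that SGM7 and SGM15 stretched at both ends, and the log2 fold change was 0.17 ± 0.26 (SE; 95% interval -0.37 to 0.71; limma adjusted p = 0.841). In F2, Veh animals had 411, 206, 230, 107 and 292 and sGC animals 442, 552, 301, 245 and 145. The 2 highest animals were sGC, with a log2 fold change of 0.42 ± 0.37 (SE; 95% interval -0.38 to 1.21; limma adjusted p = 0.664). The difference between the F2 and F3 fold changes of GAL was 0.95 on the log2 scale (two-sided permutation test, 100000 permutations, p = 0.0771, adjusted p = 0.842).

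NUCB2, the nesfatin-1 precursor, did not differ between groups in any generation. F1 Veh animals had 1948, 2368, 1828, 1573 and 1572 normalized counts and F1 sGC animals 1779, 1567, 1909, 1957 and 1230. The groups shared most of their range, with a log2 fold change of -0.14 ± 0.14 (SE; 95% interval -0.43 to 0.15; limma adjusted p = 0.736). F2 Veh animals had 1816, 1535, 1607, 1306 and 1641 and F2 sGC animals 1777, 1846, 1395, 1598 and 1523, again overlapping, with a log2 fold change of 0.04 ± 0.10 (SE; 95% interval -0.17 to 0.26; limma adjusted p = 0.877). In F3, Veh animals ran from 1692 to 2222 with a median of 1805.5 and sGC animals from 1567 to 2029 with a median of 1832.5. The F3 log2 fold change of -0.03 ± 0.07 (SE; 95% interval -0.17 to 0.12; limma adjusted p = 0.907) left little room for a difference. NUCB2 is made in many cell types beside neurons.

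**Figure D4:**
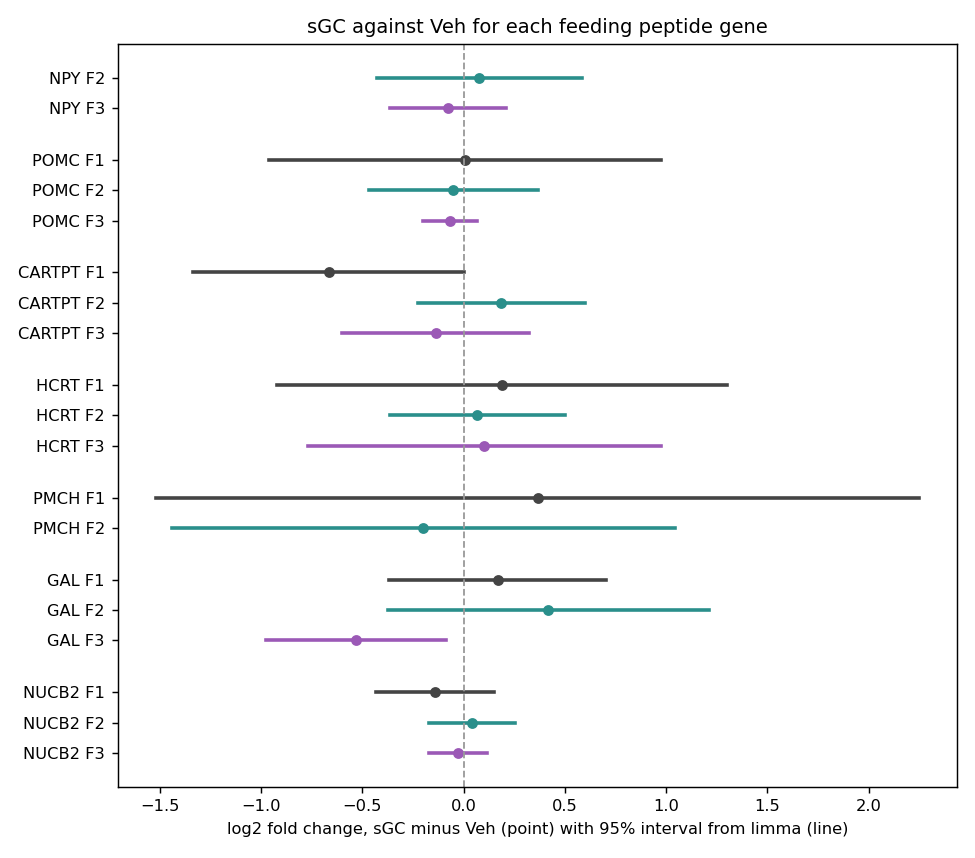
log2 fold change (sGC minus Veh, points) of each measured feeding peptide gene in F1 (grey), F2 (green) and F3 (purple), with the 95% interval from limma as a line. PMCH had the widest interval (-1.52 to 2.25 in F1) and POMC in F3 the narrowest (-0.20 to 0.06). GAL in F3 was the one member whose limma interval left out 0, before adjustment over all genes. Its interval from its own spread alone, not drawn, was -1.08 to 0.02.

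No member had a treatment difference that itself differed between generations. Of 17 differences between a pair of generations, none passed (two-sided permutation tests, 100000 permutations each, adjusted p from 0.842 to 0.950). HCRT had a small positive log2 fold change in all 3 generations (0.19, 0.07 and 0.10), each well within its error. A missed threshold does not show that the generations responded alike.

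The members differed most in how much they varied between animals of one group. The spread was taken as the SD of log2(normalized count + 1) around the group means, which over all genes tested had a median of 0.21 in F1, 0.16 in F2 and 0.08 in F3. PMCH had an SD of 2.41 in F1, the rank of 3 among 11874 genes from the most variable, and of 1.17 in F2, the rank of 72 among 11965. HCRT ranked 23 in F1 (SD 1.38) and 15 of 11866 in F3 (SD 0.84), but only 1165 in F2 (SD 0.39). POMC ranked 37 in F1 (SD 1.19), and CARTPT ranked 120 in F1 (SD 0.81) and 226 in F3 (SD 0.44).

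The remaining members were less extreme. GAL was more variable than 97.0% of genes in F1, 98.0% in F2 and 97.8% in F3. NPY was more variable than 92.5% in F2 and 92.0% in F3. NUCB2 was more variable than 72.8%, 54.0% and 74.1% of all genes, and than 90.3%, 74.4% and 94.1% of the genes within 2-fold of its level. POMC in F3, with an SD of 0.09, was more variable than 57.6% of all genes and than 19.0% of the 2166 genes within 2-fold of its level. The test in limma draws each gene's spread toward that of genes of like level, so the most uneven members had smaller fitted errors than their own spread gave. For PMCH in F1 the fitted SE was 0.91 and the SE from its own spread 1.52, and for CARTPT in F1 they were 0.32 and 0.52.

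**Figure D5:**
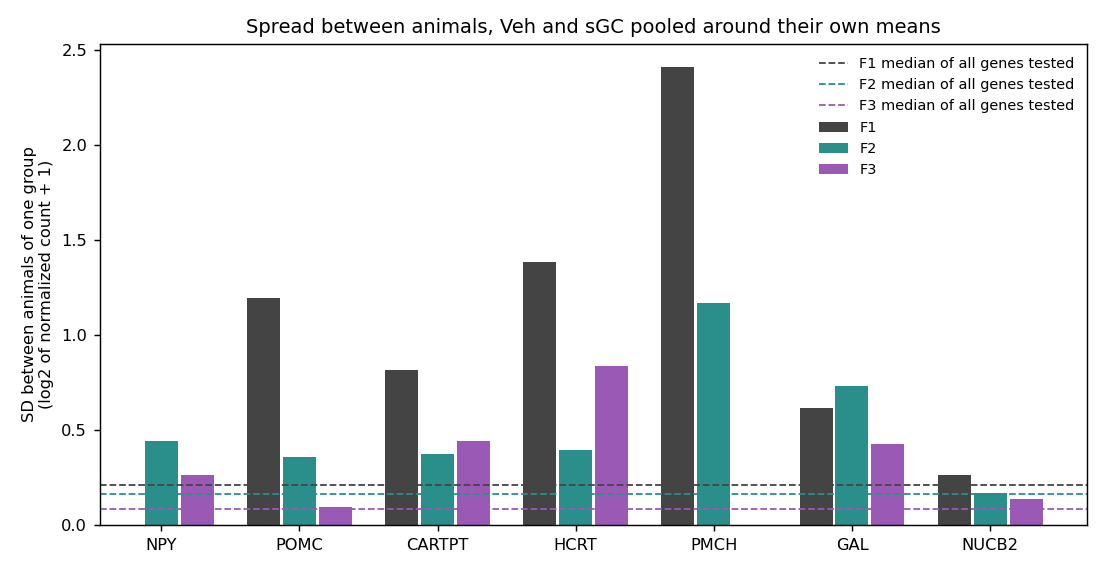
SD between animals of one group, on log2(normalized count + 1) around the Veh and sGC means, for each measured feeding peptide gene in F1 (grey), F2 (green) and F3 (purple), with dashed lines at the median SD of all genes tested. PMCH in F1 stood highest at 2.41, and POMC in F3 (0.09) was next to the F3 median of 0.08.

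Pairs of members were compared across animals after each group mean was taken away. Of 21 pairs, none passed adjustment over the family (two-sided permutation tests within groups, 100000 permutations). The smallest p was for GAL and NUCB2 over 32 animals (Pearson r = 0.538, permutation p = 0.00296, adjusted p = 0.0622; Spearman rho = 0.536, permutation p = 0.00521, adjusted p = 0.0634). Within a generation r was 0.512 in F1, 0.838 in F2 and 0.175 in F3, and without the 2 animals farthest from the median of GAL it was 0.434. Such animals were picked by only 1 gene of each pair. After median-of-ratios scaling the pooled r fell to 0.265 (permutation p = 0.148, adjusted p = 0.389) and the F1 value to -0.052. PMCH and HCRT, the 2 lateral hypothalamic peptides, had r = 0.749 over 20 animals (permutation p = 0.00959, adjusted p = 0.101) and rho = 0.731 (permutation p = 0.00604, adjusted p = 0.0634). Their r was 0.802 in F1, 0.454 in F2 and 0.642 without the 2 animals farthest from the median of HCRT.

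CARTPT had negative correlations with PMCH, GAL and NPY, none of which passed adjustment. Its r with PMCH was -0.521 over 20 animals (permutation p = 0.0847, adjusted p = 0.254), with rho = -0.529 (permutation p = 0.0259, adjusted p = 0.128), and r without the 2 farthest animals was -0.393. With GAL, r was -0.281 over 32 animals (permutation p = 0.0248, adjusted p = 0.104) and rho -0.384 (permutation p = 0.0304, adjusted p = 0.128), negative in each generation at -0.128, -0.585 and -0.354 and -0.347 without the 2 farthest animals. With NPY, r was -0.503 over 22 animals (permutation p = 0.0187, adjusted p = 0.104) and rho -0.350 (permutation p = 0.135, adjusted p = 0.303), at -0.675 in F2, -0.372 in F3 and -0.308 without the 2 farthest animals. The 2 farthest animals were picked by CARTPT in the pairs with PMCH and GAL, and by NPY in the pair with NPY. All these correlations share the libraries of the same animals and any unevenness of the punch.

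The genes most like each member across animals were listed by the mean over generations of Pearson's r with it, among 10542 genes whose mean reached 50 in each generation, as a description without a test. For CARTPT they were CAPRIN2 (mean r 0.81), AVP (0.78) and ALS2CR12 (0.74), with r for AVP of 0.83 in F1, 0.86 in F2 and 0.65 in F3. For PMCH they were GRP (0.93), which encodes gastrin-releasing peptide, the transcription factor POU3F3 (0.87) and the ion channel TRPM3 (0.86), over 20 animals. For HCRT they included ELFN1 (0.82) and UBASH3B (0.82).

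For GAL the most similar genes were the Wnt receptor FZD5 (0.88), the kinase PRKD1 (0.86) and ENOX2 (0.84). For POMC they were ZBTB48 (0.82), PIDD1 (0.80) and C12orf65 (0.79), none of them a peptide gene. For NPY, over 22 animals, they were the glutamate receptor subunit GRIK2 (0.79), VWC2L (0.77) and RICTOR (0.76). For NUCB2 they were PPIB (0.87) and PDIA3 (0.82), 2 protein-folding enzymes of the endoplasmic reticulum, and MAMLD1 (0.81).

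Genes for receptors of these peptides were also compared. Of 20 listed receptor genes, 12 were tested in F1, 13 in F2 and 13 in F3, and none was called in any generation by limma, with 0, 3 and 3 at an unadjusted p under 0.05, against the shares of 13.6%, 11.7% and 13.1% of all genes given above, which hold for the lists that follow too. Their median log2 fold change was -0.02, -0.05 and -0.03. In F1 the smallest p belonged to GPR160, a receptor proposed for CART, at 1208 ± 183 (SD, n = 5) normalized counts in Veh animals against 1416 ± 108 in sGC animals (log2 fold change 0.24 ± 0.12, SE; limma adjusted p = 0.403), followed by NPY1R (-0.31, limma adjusted p = 0.427) and ATRN (0.21, limma adjusted p = 0.489). In F2, GALR1, a galanin receptor, was at 1173 ± 122 (SD, n = 5) and 1491 ± 202 (log2 fold change 0.34 ± 0.10, SE; limma adjusted p = 0.217), GALR3 had -0.21 (limma adjusted p = 0.360) and SDC3 -0.18 (limma adjusted p = 0.384). SDC3 was the 1 gene of the 13 whose F2 groups did not overlap, beside 2.4% of all genes tested in F2. In F3, NPY5R, a feeding receptor for NPY, was at 293 ± 15.5 (SD, n = 6) and 251 ± 18.0 (log2 fold change -0.22 ± 0.05, SE; limma adjusted p = 0.125), the orexin receptor HCRTR1 had -0.18 (limma adjusted p = 0.203) and NPY2R -0.28 (limma adjusted p = 0.295). These 3 F3 receptors were lower in sGC animals beside GAL at an unadjusted p only.

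Genes that carry hormone signals into feeding neurons were likewise not called by limma, with 25 of 29 tested in F1, 25 in F2 and 24 in F3, of which 3, 1 and 3 had an unadjusted p under 0.05. In the following brackets the first value is the log2 fold change and the second the limma adjusted p. The smallest p values were for NR3C2, the mineralocorticoid receptor, in F1 (0.37, 0.171), with INSR (0.33, 0.225) and IRS1 (0.26, 0.356) after it. In F2 they were for the oestrogen receptor ESR1 (0.44, 0.233), RAMP2 (-0.28, 0.464) and the ghrelin receptor GHSR (0.28, 0.475). In F3 they were for NR3C1, the glucocorticoid receptor (0.09, 0.201), FOXO1 (0.10, 0.205) and MTOR (-0.07, 0.375).

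Among 24 transcription factors of feeding neurons, 1 of 18 tested was called in F1, 0 of 16 in F2 and 0 of 17 in F3 by limma, and 8 in F1, 3 in F2 and 3 in F3 had an unadjusted p under 0.05. The F1 genes were 6 with higher and 2 with lower levels in sGC animals. The called gene was ONECUT2, at 107 ± 42.0 (SD, n = 5) normalized counts in Veh animals and 310 ± 74.2 (SD, n = 5) in sGC animals, without overlap (log2 fold change 1.56 ± 0.23, SE; limma adjusted p = 0.00381). In F2 the smallest p values were for BSX, OTP (0.32, limma adjusted p = 0.278) and POU3F2 (0.28, limma adjusted p = 0.278). In F3 they were for EBF3, at 528 ± 157 (SD, n = 6) in Veh and 309 ± 38.4 in sGC animals without overlap (log2 fold change -0.74 ± 0.14, SE; limma adjusted p = 0.0763), NKX2-1 and ISL1 (-0.20, limma adjusted p = 0.370).

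Of 20 genes that cut, process and store peptide precursors, 18 were tested in each generation and 1 was called by limma in F1, 0 in F2 and 0 in F3, and 2 in F1, 2 in F2 and 6 in F3 had an unadjusted p under 0.05. The called gene was the proprotein convertase PCSK5, at 340 ± 65.2 (SD, n = 5) normalized counts in Veh animals and 546 ± 82.0 (SD, n = 5) in sGC animals, without overlap (log2 fold change 0.69 ± 0.15, SE; limma adjusted p = 0.0314). In F2 the smallest p values were for PCSK6 (log2 fold change -0.64, limma adjusted p = 0.0622), CADPS2 (-0.24, adjusted p = 0.375) and CPD (0.29, adjusted p = 0.534). In F3 they were for CADPS (-0.11, limma adjusted p = 0.0768), PCSK1 (-0.32, adjusted p = 0.215) and PCSK6 (0.22, adjusted p = 0.253). PCSK1, the convertase that makes the first cuts in POMC, was at 5144 ± 457 (SD, n = 6) in F3 Veh and 4160 ± 750 (SD, n = 6) in F3 sGC animals.

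Of 45 other peptides with a part in feeding, 1 of 23 tested was called in F1, 0 of 24 in F2 and 0 of 22 in F3 by limma, and 8 in F1, 3 in F2 and 6 in F3 had an unadjusted p under 0.05. Of the 8 in F1, 6 were lower in sGC animals (SPX, TRH, OXT, AVP, CRH and CCK) and 2 were higher (ADCYAP1 and GRP). The called gene was SPX, which encodes the satiety peptide spexin, at 114, 158, 113, 150 and 67 normalized counts in F1 Veh animals and 35, 31, 72, 96 and 36 in F1 sGC animals. It was lowest in the 3 sGC animals with low AVP, and the groups overlapped by 1 Veh animal (log2 fold change -1.23 ± 0.29, SE; limma adjusted p = 0.0454). In F2 the smallest p values were for OXT (log2 fold change 0.65, limma adjusted p = 0.244), CRH (0.54, adjusted p = 0.328) and SPX (0.49, adjusted p = 0.428). In F3 they were for VIP (0.57, limma adjusted p = 0.149), TAC3 (-0.36, adjusted p = 0.191) and UCN2 (0.06, adjusted p = 0.280).

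Some region and cell type markers moved with the groups in F1 and F2, where no member had an unadjusted p under 0.05. In F1, 0 of 9 PVN markers were called, 5 of them were lower in sGC animals at an unadjusted p under 0.05, and the median log2 fold change of the 9 was -0.64, while 2 of 6 suprachiasmatic markers were called higher, LHX1 (1.04, limma adjusted p = 0.0247) and RORB (0.69, limma adjusted p = 0.0432). At an unadjusted p under 0.05, 6 of 7 endothelial and 4 of 6 ventromedial hypothalamic markers were higher in F1 sGC animals and 4 of 9 thalamic markers were lower. In F2, 5 of 9 PVN markers were higher in sGC animals at an unadjusted p under 0.05, with a median of 0.28, and all 7 oligodendrocyte markers were lower without overlap between groups, with a median of -0.81, none of them called, and 4 of 7 endothelial markers were lower at an unadjusted p under 0.05. In F3, no PVN marker had an unadjusted p under 0.05, with a median of -0.02. The measured genes listed as lateral hypothalamic markers, other than the members, had opposite signs in F1. LHX9 was at 222 ± 151 (SD, n = 5) in Veh and 92.2 ± 21.0 in sGC animals (log2 fold change -1.05 ± 0.29, SE; limma adjusted p = 0.0955), and NTS at 359 ± 126 and 480 ± 188 (0.41 ± 0.25, SE; limma adjusted p = 0.510). Veh animal SGM15 had the highest F1 level of LHX9 (478) and of the thalamic marker TCF7L2 (5450). It had the lowest F1 level of HCRT (58). The part of tissue content in the members' values was not tested.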

How the data were processed

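PVN micropunches were sequenced as TruSeq mRNA libraries by the study. Per the study's methods, the authors aligned reads to cavPor3, counted them per gene, removed outliers by Cook's distance, used ComBat against the 2 sequencing batches of F3 and took residuals for normalization with RUVSeq. The authors deposited whole numbers that had passed these steps, here handled as a score with no fixed range, and no count model was run. The submitters' processing notes name TopHat2 and edgeR. The deposited columns of the authors' own comparison (fold change, likelihood ratio, p-value, false discovery rate) were not used. The tables hold normalized values, so the reads per library were not measured here. The 2 F3 Veh libraries re-sequenced in the second batch were not analysed here. Animals are separate samples, and p-values weigh differences against the spread between them that was left after normalization. In limma that spread was drawn toward that of genes of like level.

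Each generation was fitted alone on log2(value + 1) by limma 3.58.1, with an eBayes trend (R 4.3.3). Genes whose table mean was under 10 were left out. The p-values were two-sided and adjusted by the Benjamini-Hochberg method over the genes left, with calls below 0.05. A fold change on this scale understates the change of low genes. Because whole-table residual normalization removes directions of variation, 1 direction in F1, 1 in F2 and 2 in F3 were found close to 0, and the fit was repeated with them as covariates. The fit was tested on simulated data. Members were also tested by exact permutation of treatment labels, by permutation tests of differences between generations and by correlations of group-centred values (Python 3.11.15, numpy 2.4.6, scipy 1.17.1). Intervals from a gene's own spread use the pooled SD of the 2 groups. Alternatives were a pseudocount of 5, no filter or a mean of at least 50, 3 rescalings, no trend, the batch terms and leaving out each animal.

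The members and gene lists were chosen with earlier results of these data known. Named genes were all members, the called genes of each list or else its 3 smallest p values per generation, and the 3 genes most like each member, of which 1 is not reported here. Other list genes given with values, such as those beside POMC and PMCH, were chosen after their values were seen. Coordinates and sequences were not used here, since the reference table is of another genome build.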

Additional observations from a re-analysis of the deposited data

Results flagged for a closer look

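Among the 38 groups of member values examined, 5 held 1 animal far from the rest of its group by Dixon's criterion on log2(normalized count + 1). Chance marks about 1 in 20 groups, which is 1.9 of 38. POMC in F1 Veh animal SGM7 was at 10.42 on this scale, or 1372 normalized counts against 102 to 204 in the other Veh animals. PMCH in F2 Veh animal SGM27 was at 13.51, or 11697 against 5657 to 6712. CARTPT in F3 sGC animal SGM2 was at 10.86, or 1860 against 1369 to 1476. GAL in F3 Veh animal SGM14 was low at 8.20, or 294 against 500 to 596, and NUCB2 in F3 Veh animal SGM17 was high at 11.12, or 2222 against 1692 to 1851. The F1 sGC animal SGM16, which decided the CARTPT result, was not among them, at 3534 against 488 to 872 in the other 4 sGC animals. Missing this criterion does not show that SGM16 belonged with the others.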

How the results depend on the processing

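The members' result held in most recomputations. Of 366 recomputed log2 fold changes over the 19 member results, 39 turned their sign, in 12 of the results, and 1 became called by limma, CARTPT in F1 without SGM16 (-1.15, adjusted p 0.00135), so that the count of members called in F1 ran from 0 to 1 with 1 animal left out. No paired analysis was possible because Veh and sGC animals of a generation share no replicate numbers. Precision was limited by the 5 or 6 animals a group and by the spread between them, and the totals of normalized values do not give read depth. Of all genes tested in F1, 78 were called (72 higher, 6 lower), and 2058 after median-of-ratios scaling (1006 higher, 1052 lower), 1943 after scaling to the total (1026 higher, 917 lower) and 2084 after quantile normalization (917 higher, 1167 lower), of which no member was one. Without trend 30 were called, and 15 to 474 with 1 animal left out. In F2, 17 were called (all lower) at a mean of at least 50 and 42 (13 higher, 29 lower) after quantile normalization, against 0, and 0 to 114 with 1 animal left out. In F3, where 6 were called, the count was 10 without trend, 1 with the removed directions as covariates, 2 in the first batch alone, 3 with batch as a covariate and 1 to 15 with 1 animal left out.

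The count of F1 members with an unadjusted p under 0.05 was 1 at a mean of at least 50 and 1 with the removed direction as a covariate (CARTPT), 1 under each of the 3 rescalings (NUCB2, -0.20) and 0 to 1 with 1 animal left out, against 0. In F3 it was 0 in the first batch alone and 0 with batch as a covariate, against 1. One pair of members passed without the second batch (GAL and NUCB2, adjusted p 0.0433), against 0, but their adjusted p was 0.389 after median-of-ratios scaling. POMC turned to -0.055 (median of ratios), -0.049 (total) and -0.097 (quantile) in F1 and to 0.023 (median of ratios) and 0.033 (total) in F2, and HCRT in F3 to -0.12 in the first batch and with batch as a covariate. With 1 animal left out, F1 values ran from -1.15 to -0.43 for CARTPT, -0.14 to 0.44 for GAL, -0.31 to 0.52 for HCRT, -0.20 to -0.031 for NUCB2, -0.43 to 1.30 for PMCH and -0.29 to 0.66 for POMC. F2 values ran from 0.040 to 0.33 for CARTPT, 0.15 to 0.68 for GAL, -0.12 to 0.18 for HCRT, -0.049 to 0.29 for NPY, -0.024 to 0.097 for NUCB2, -0.58 to 0.42 for PMCH and -0.20 to 0.067 for POMC. F3 values ran from -0.32 to 0.029 for CARTPT, -0.14 to 0.41 for HCRT, -0.14 to -0.0015 for NPY and -0.061 to 0.025 for NUCB2. No difference between generations passed as deposited, after median-of-ratios scaling or with a pseudocount of 5, the settings run for it. The cause of these changes was not tested.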
